A study of Mus musculus with 19 samples.

Results

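The genes described here are 36 genes of the presynaptic terminal, which carry out the storage, docking, release and recycling of synaptic vesicles. They came as a list of symbols chosen by function and with earlier results of these data known, and each symbol was matched to a mouse Ensembl identifier of the hippocampus RNA-seq table. All 36 were among the 15634 genes of the table, and all 36 were among the 14404 genes that passed the filter on low values, a normalised count of at least 1 in at least 3 of the 6 libraries.

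The study sequenced RNA of the hippocampus of mice after bone marrow transplantation, on day 80. Every recipient had been irradiated over the whole body with 1100 cGy in split doses and had then received 5000000 bone marrow cells from which T cells had been depleted. The TCD group (T-cell-depleted marrow, 3 mice) received nothing further and served as the control without graft-versus-host disease, whereas the GVHD group (3 mice) also received 500000 splenic T cells. Both groups therefore shared the irradiation and the marrow graft, and an unirradiated hippocampus was not analysed here. The strain and age of the mice are not given in the sources used here. The samples were whole hippocampi, so fewer terminals or neurons and less RNA per cell cannot be told apart in these values.

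At a presynaptic terminal, vesicles are filled with transmitter by membrane transporters, tethered to one another by synapsins, and brought to the active zone, a protein scaffold opposite the receptors of the next cell. Calcium entering through voltage-gated channels is sensed by synaptotagmins, and the SNARE proteins of the vesicle and plasma membrane then zip together and fuse the membranes. Dynamin and its partners retrieve the vesicle membrane. In the hippocampus most terminals are glutamatergic and load vesicles through Slc17a7 (VGLUT1), the terminals of inhibitory interneurons load GABA through Slc32a1 (VGAT), and the mossy fibres of dentate granule cells also load zinc through Slc30a3 (ZnT3).

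The deposited library totals lay between 982114.4 and 988044.4 in the GVHD libraries and between 1019597.9 and 1078635.6 in the TCD libraries. The smallest step between values gave an estimated 16673678 to 18547003 reads per library. Synapsin 3 (Syn3), the least expressed of the 36 genes, rested on an estimated 119 to 164 reads per library, and Snap25 on 35850 to 42254. Per kilobase of the longest transcript, the mean levels over the 6 libraries ranged from 1.79 for Syn3, 6.72 for Syt2 and 9.98 for Rims2 to 433.6 for Syp, 471.2 for Snap25 and 496.3 for Vamp2. The 20 pan-neuronal, 5 dentate gyrus, 5 CA1 and 4 CA3 genes listed were all above 0 in every library. Of the 14404 tested genes only 36 were at 0 in any library, so values above 0 cannot identify the tissue.

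Limma tests (two-sided) over all genes called 2 of the 36 presynaptic genes lower in GVHD at an adjusted p under 0.05, Nrxn2 and Slc30a3, and called 0 higher. Among all tested genes 0.16% were called lower and 0.319% higher. The direction of the others leaned the same way without passing the test. Fold changes were negative (lower in GVHD) for 32 of the 36 genes, against 49% of all tested genes. At an unadjusted p under 0.05, 15 of the 36 were lower, against 9.15% of all tested genes, and 0 were higher, against 7.85%. All 3 GVHD libraries lay below all 3 TCD libraries for 18 of the 36 genes, against 13.2% of all tested genes, and above them for 0, against 10.8%. These shares of all tested genes differed with the GC content of the genes, as given below. The median log2 fold change was -0.16 over the 36 genes, with a range from -0.68 (Stx1a) to 0.22 (Syt2), and 0.00 over all tested genes. Fold changes are on the scale of log2(normalised count + 1), GVHD minus TCD. The plot of every gene in every library shows these values.

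**Figure D1:**
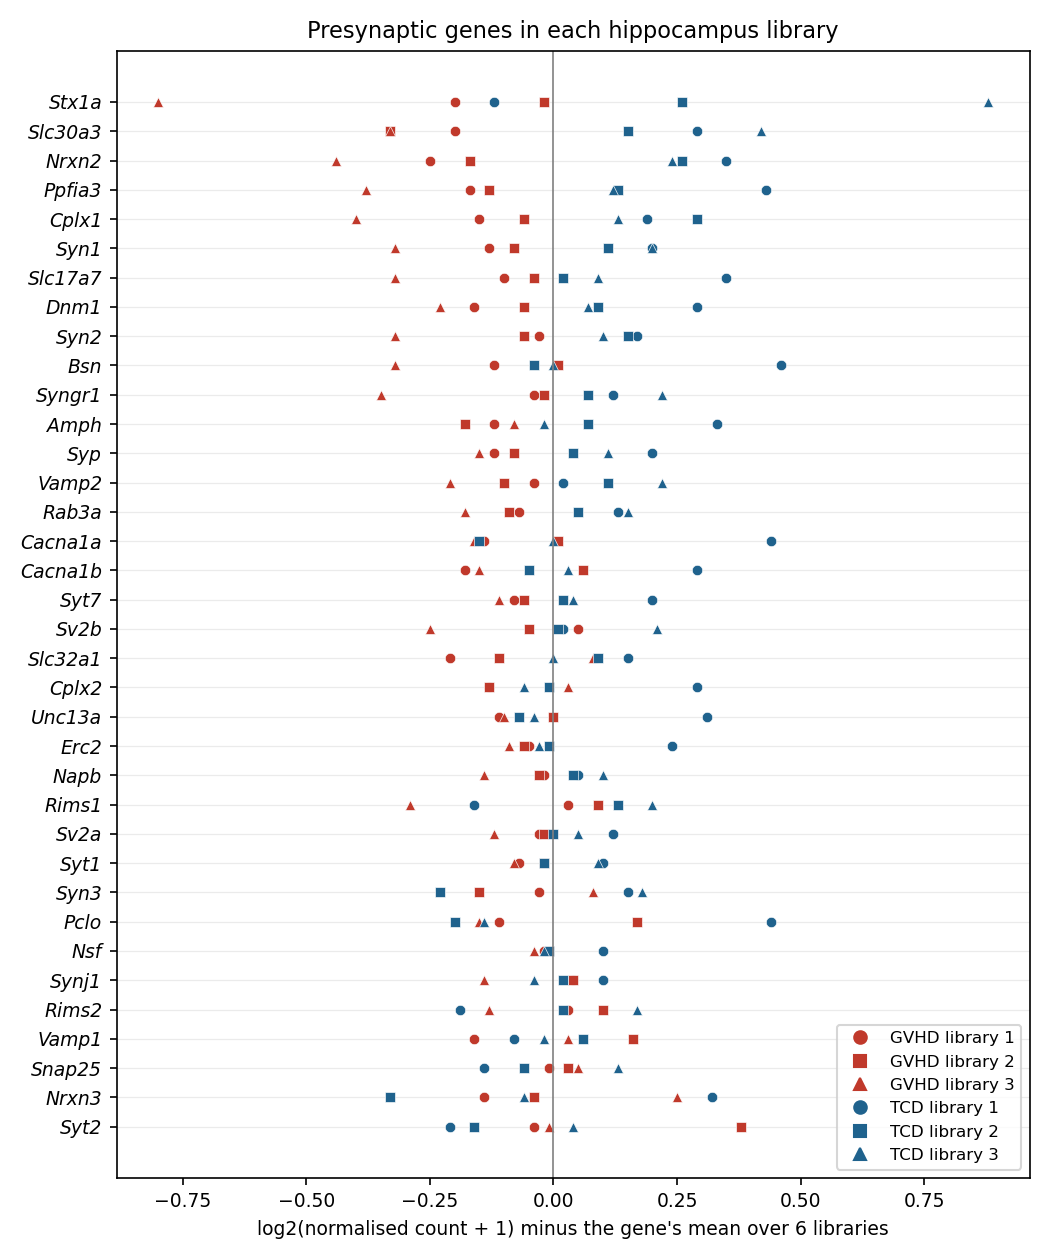
Log2(normalised count + 1) of each of the 36 presynaptic genes in the 6 hippocampus libraries, as the difference from that gene's mean over the libraries, with genes ordered by log2 fold change. GVHD libraries are red and TCD libraries blue, and the symbols mark libraries 1 to 3; for 18 genes, all red points lie left of all blue points.

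Among the adhesion molecules, neurexin 2 fell and neurexin 3 gave no call. Neurexins are presynaptic surface proteins that bind partners such as neuroligins across the cleft. Nrxn2 (ENSMUSG00000033768, chromosome 19, 6418731 to 6544169, GRCm38) had normalised counts of 259.8, 273.5 and 227.7 in GVHD libraries 1, 2 and 3 and of 392.2, 370.3 and 365.4 in TCD libraries 1, 2 and 3. The groups did not overlap, and the TCD values lay close together. The means were 253.7 ± 23.5 and 376.0 ± 14.2 (SD, n = 3 each), a log2 fold change of -0.57 ± 0.08 (SE), with a limma adjusted p of 0.0366, so that Nrxn2 fell by 32.6%. Nrxn3 had 201.9, 217.3 and 265.8 in GVHD and 278.0, 176.8 and 213.2 in TCD. Its highest and its lowest value were both in TCD libraries, and its log2 fold change was 0.05 ± 0.16.

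Of the 3 vesicular transporters, the zinc transporter fell, and the glutamate and GABA transporters gave no call. Slc30a3 (ENSMUSG00000029151, chromosome 5, 31086106 to 31108237, GRCm38) had normalised counts of 57.9, 52.8 and 52.7 in GVHD and of 82.0, 74.0 and 89.6 in TCD libraries 1, 2 and 3. The groups were separated by a gap wider than the spread of the GVHD libraries. Its means were 54.5 ± 2.95 and 81.9 ± 7.83 (SD, n = 3 each), a log2 fold change of -0.58 ± 0.09 (SE), with a limma adjusted p of 0.0414, so that Slc30a3 fell by 32.9%. Slc17a7, the main glutamate transporter of hippocampal terminals, had 1221.1, 1272.8 and 1054.4 in GVHD and 1676.8, 1335.8 and 1394.7 in TCD. All GVHD values lay below all TCD values, with the widest gap to TCD library 1, and the log2 fold change of -0.31 ± 0.11 did not pass (adjusted p = 0.214). Slc32a1 had 85.8, 92.0 and 104.7 in GVHD against 109.9, 105.9 and 98.9 in TCD, groups that overlapped, and a log2 fold change of -0.16 ± 0.09, which went to -0.09 without GVHD library 1 and to -0.24 without GVHD library 3.

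Neither call held in every fit that left out a single library. Leaving out GVHD library 1, 2 or 3 or TCD library 2 left 0 of the 36 genes called lower by limma, where 0.00704%, 0.0211%, 0% and 0% of all tested genes were called. Leaving out TCD library 1 or 3 left Nrxn2 alone, where 0.133% and 0.448% of all tested genes were called lower. The fold change of Nrxn2 stayed between -0.63 and -0.49 and that of Slc30a3 between -0.65 and -0.51 in these fits.

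The 7 synapsins and vesicle membrane proteins had a median log2 fold change of -0.23, with 0 called. All GVHD libraries were below all TCD libraries for 5 of the 7, against 13.2% of all tested genes. At an unadjusted limma p under 0.05, 4 of the 7 were lower, against 9.15%. Synapsin 1 (Syn1), which ties vesicles into the reserve pool, had 654.4, 679.4 and 575.4 in GVHD and 825.2, 774.3 and 825.5 in TCD. The groups did not overlap, and the log2 fold change was -0.35 ± 0.08 with an adjusted p of 0.0959. Synapsin 2 (Syn2) had 851.8, 834.4 and 698.4 in GVHD and 978.1, 968.3 and 932.1 in TCD, also without overlap, at -0.28 ± 0.09 (log2). Synaptophysin (Syp), an abundant vesicle membrane protein used as a stain for terminals, had 1129.2, 1164.6 and 1105.9 in GVHD and 1406.3, 1263.2 and 1327.6 in TCD, at -0.23 ± 0.08 (log2). Synaptogyrin 1 (Syngr1), of the same membrane protein family, had a log2 fold change of -0.27 ± 0.10. Sv2a, a vesicle glycoprotein and the binding site of the drug levetiracetam, had 420.3, 425.0 and 396.3 in GVHD and 466.5, 429.6 and 445.1 in TCD, groups that came close but did not overlap. Its relative Sv2b (-0.16 ± 0.10, log2) and Syn3 (-0.06 ± 0.15, log2) overlapped between the groups.

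The 3 calcium sensors had fold changes of either sign, with 0 called. Synaptotagmin 1 (Syt1), the fast sensor of most forebrain terminals, had 1707.3, 1761.5 and 1697.9 in GVHD and 1913.4, 1769.0 and 1908.0 in TCD, and Syt7, a slower sensor, had a log2 fold change of -0.17 ± 0.07. Both had all GVHD values below all TCD values, without a call. Syt2, the fast sensor of many fast-spiking inhibitory terminals, had the highest fold change of the 36 genes, with 44.5, 59.8 and 45.6 in GVHD and 39.4, 40.8 and 47.2 in TCD. Its groups overlapped, GVHD library 2 stood highest, and the log2 fold change of 0.22 ± 0.13 did not pass (adjusted p = 0.417). Without GVHD library 2 it was 0.09.

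Of the 8 SNARE proteins, complexins and disassembly factors, 0 were called, and the median log2 fold change was -0.14. Stx1a, a plasma membrane SNARE, had the lowest fold change of the 36 genes, with 71.2, 80.8 and 46.8 in GVHD and 75.1, 98.3 and 152.0 in TCD. Its libraries were spread so widely, with a coefficient of variation of 26.5% in GVHD and 36.4% in TCD, that the log2 fold change of -0.68 ± 0.26 had an adjusted p of 0.242, and TCD library 1 lay below GVHD library 2. The fold change went to -0.41 without TCD library 3 and to -0.91 without TCD library 1. Vamp2, the main vesicle SNARE, had 1057.1, 1017.7 and 941.9 in GVHD and 1104.3, 1172.5 and 1272.9 in TCD, without overlap, at -0.23 ± 0.09 (log2). Snap25, the other plasma membrane SNARE, had 2282.0, 2339.6 and 2372.0 in GVHD and 2084.9, 2202.6 and 2516.5 in TCD. The GVHD values of Snap25 fell inside the TCD range, and its log2 fold change was 0.04 ± 0.10.

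Complexins bind the assembled SNARE bundle and hold it ready for calcium. Cplx1 had 552.1, 585.3 and 462.3 in GVHD and 700.1, 748.9 and 671.5 in TCD, groups well apart, at a log2 fold change of -0.41 ± 0.10 with an adjusted p of 0.0962. Cplx2, the complexin at the higher normalised count, overlapped between the groups, at -0.15 ± 0.11 (log2). Vamp1, a vesicle SNARE found mostly in other brain regions and in some interneurons, had 104.0, 129.8 and 118.1 in GVHD and 110.0, 121.0 and 114.5 in TCD, which overlapped almost fully. The factors that pull spent SNARE bundles apart, Nsf (-0.05 ± 0.07, log2) and its adaptor Napb (-0.12 ± 0.07, log2), gave small negative values, and the GVHD libraries were below the TCD libraries for Napb.

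The 8 priming and active zone genes had a median log2 fold change of -0.14 with 0 called. Ppfia3, a liprin that anchors active zone proteins, was the lowest of them, with 136.9, 140.9 and 118.1 in GVHD and 207.8, 169.1 and 167.1 in TCD. Its groups did not overlap, and its log2 fold change of -0.45 ± 0.11 had an adjusted p of 0.0915. Rab3a, the vesicle GTPase that binds RIM proteins, had 531.6, 523.0 and 492.1 in GVHD and 607.6, 577.7 and 618.0 in TCD, at -0.22 ± 0.07 (log2). Erc2, an active zone scaffold, was at -0.13 ± 0.08 (log2), with GVHD below TCD.

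The values of several large active zone genes rested on TCD library 1. Bassoon (Bsn), a giant scaffold protein, had 459.2, 502.1 and 399.8 in GVHD and 683.1, 485.3 and 497.2 in TCD, and its log2 fold change of -0.28 ± 0.14 went to -0.12 without TCD library 1. Piccolo (Pclo), the related scaffold, had 244.4, 295.9 and 236.6 in GVHD and 356.6, 229.1 and 238.2 in TCD, so that TCD library 1 was its highest and TCD library 2 its lowest value. Unc13a (Munc13-1), which opens syntaxin during priming, had 274.9, 296.1 and 275.9 in GVHD and 368.2, 281.7 and 288.0 in TCD, and its log2 fold change of -0.14 ± 0.11 went to -0.01 without TCD library 1. Rims1 had 165.9, 173.2 and 132.8 in GVHD and 146.0, 178.1 and 187.7 in TCD, and Rims2 had 48.8, 51.3 and 43.5 against 41.9, 48.3 and 53.8. The log2 fold change of Rims1, -0.12 ± 0.13, went to -0.0006 without GVHD library 3. For these RIM scaffolds TCD library 1 was instead among the lower values, and the Rims2 means of 47.9 ± 3.95 and 48.0 ± 5.97 (SD, n = 3 each) were nearly equal.

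The pore subunits of the release channels overlapped between the groups. Cacna1a (P/Q-type) had 140.7, 156.4 and 138.0 in GVHD and 211.1, 139.1 and 154.3 in TCD. Only TCD library 1 stood above the GVHD range, and the log2 fold change of -0.19 ± 0.14 went to -0.02 without it. Cacna1b (N-type) had 95.3, 112.7 and 97.7 in GVHD and 132.5, 104.6 and 110.9 in TCD, at -0.18 ± 0.11 (log2).

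Of the endocytosis genes, dynamin 1 (Dnm1), the GTPase that pinches off retrieved membrane, had 1337.9, 1433.8 and 1280.4 in GVHD and 1838.3, 1598.2 and 1572.8 in TCD. The groups did not overlap, and the log2 fold change of -0.30 ± 0.09 had an adjusted p of 0.159. Amphiphysin (Amph), which brings dynamin to the vesicle neck, had 217.4, 208.1 and 223.3 in GVHD and 295.5, 246.7 and 232.6 in TCD, again without overlap, at -0.25 ± 0.09 (log2). Synaptojanin 1 (Synj1), a phosphatase that strips the clathrin coat, had 570.6, 571.8 and 504.5 in GVHD and 594.7, 562.8 and 540.4 in TCD, which overlapped, at -0.05 ± 0.08 (log2). The per-library plots of 8 of these genes show the contrast between separated and overlapping groups.

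**Figure D2:**
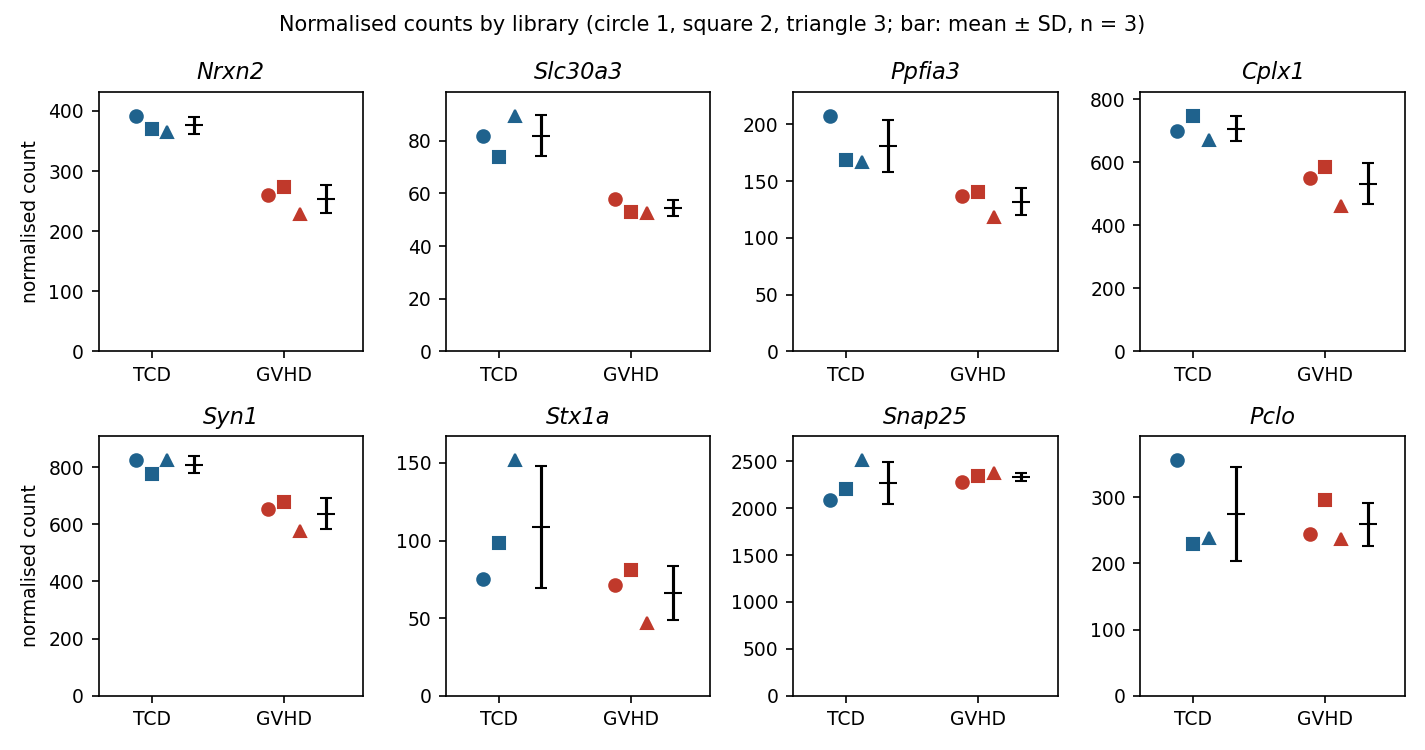
Normalised counts (linear axis from 0) of 8 presynaptic genes in TCD (blue) and GVHD (red) hippocampus, with a symbol per library and a bar for the mean ± SD (n = 3). Nrxn2, Slc30a3, Ppfia3, Cplx1 and Syn1 have separate groups, whereas Stx1a, Snap25 and Pclo overlap.

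**Figure D3:**
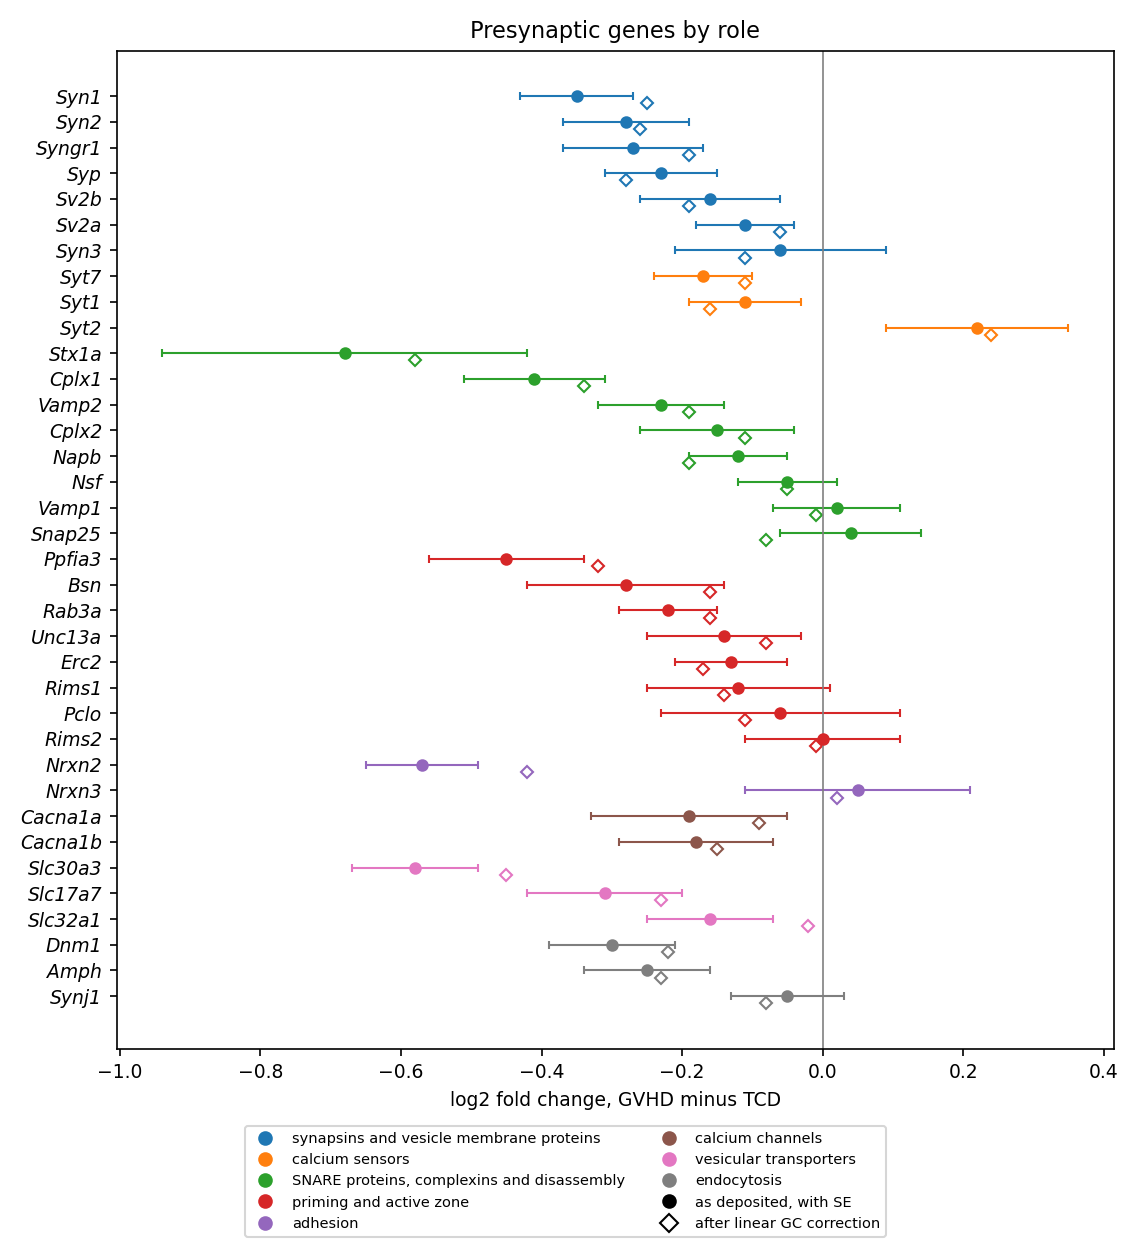
Log2 fold change (GVHD minus TCD) of the 36 presynaptic genes, grouped by role, as deposited (filled, with SE) and after a linear correction for GC content (open diamonds). Fold changes as deposited run from -0.68 for Stx1a to 0.22 for Syt2, and the diamonds of Nrxn2 and Slc30a3 lie at -0.42 and -0.45.

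The libraries did not contribute evenly. TCD library 1 held the highest value for 21 of the 36 genes and TCD library 3 for 12, leaving 2 with their highest value in GVHD library 2 and 1 in TCD library 2. GVHD library 3 held the lowest value for 24. The median deviation of the 36 genes from their means over the 6 libraries, on the log2 scale, was -0.10, -0.04 and -0.15 in GVHD libraries 1, 2 and 3 and 0.18, 0.02 and 0.09 in TCD libraries 1, 2 and 3. GVHD library 2 and TCD library 2 were thus the closest pair across the groups. The summed normalised count of the 36 genes ran from 19035.6 to 20477.5 in GVHD and from 21547.4 to 23581.6 in TCD. Neither these sums nor those of all tested genes overlapped, the latter running from 981201.4 to 987125.3 in GVHD and from 1018856.2 to 1077941.9 in TCD. Without TCD library 1 the median log2 fold change of the 36 genes was -0.12, and without TCD library 2 it was -0.20.

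GC content of the genes moved with the comparison. The GC content of the longest annotated transcript ran from 38.7% (Snap25) to 62.4% (Nrxn2) over the 36 genes, with a median of 53.1%, above the 49.8% of all tested genes. The genes with more GC had lower fold changes, with a Spearman rho of -0.71 and a Pearson r of -0.68 across the 36 genes, which share the same 6 libraries. Across the 14257 tested genes with a GC value the Spearman rho was -0.32. All 18 genes above the median GC content had negative fold changes, with a median of -0.28. The 4671 tested genes above that GC content had a median of -0.09, and 3050 of them were negative. The 18 presynaptic genes at or below it had a median of -0.09, 14 of them negative. The 9586 other tested genes had a median of 0.04, and 3943 of them were negative. At an unadjusted limma p under 0.05, 12 of the 18 presynaptic genes above the median GC content were lower, against 892 of the 4671. Of the 18 at or below it, 3 were lower, against 415 of the 9586. All GVHD libraries lay below all TCD libraries for 12 and 6 of these presynaptic genes, against 1114 and 767 tested genes. Both called genes lay above the median GC content. Of all genes called lower, 19 lay above it and 2 at or below it.

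Coding stretches of 5 of the genes show what these GC values look like in sequence. Each is the window of 120 coding bases whose GC content is nearest that of its whole transcript, written with G and C in capitals, from GENCODE transcripts on GRCm38. Slc30a3 (coding positions 361 to 480, 60.0% GC) and Ppfia3 (positions 601 to 720, 60.8%) had low fold changes, Slc32a1 (positions 1 to 120, 61.7%) had a weaker fold change at a like GC content, and Syt1 (positions 511 to 630, 45.8%) and Napb (positions 91 to 210, 44.2%) had little GC and small fold changes.
Slc30a3: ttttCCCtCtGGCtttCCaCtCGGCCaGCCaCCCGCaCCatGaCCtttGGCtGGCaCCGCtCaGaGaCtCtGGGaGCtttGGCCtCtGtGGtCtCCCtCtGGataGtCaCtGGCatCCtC
Ppfia3: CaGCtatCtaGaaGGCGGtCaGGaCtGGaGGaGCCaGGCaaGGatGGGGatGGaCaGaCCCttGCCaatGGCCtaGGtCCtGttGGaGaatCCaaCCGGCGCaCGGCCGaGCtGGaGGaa
Slc32a1: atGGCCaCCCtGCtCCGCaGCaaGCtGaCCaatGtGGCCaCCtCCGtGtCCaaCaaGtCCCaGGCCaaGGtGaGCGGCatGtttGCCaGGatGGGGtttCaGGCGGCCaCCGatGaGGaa
Syt1: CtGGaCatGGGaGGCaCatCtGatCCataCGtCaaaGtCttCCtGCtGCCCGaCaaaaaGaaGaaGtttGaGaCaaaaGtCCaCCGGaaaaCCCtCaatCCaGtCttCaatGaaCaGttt
Napb: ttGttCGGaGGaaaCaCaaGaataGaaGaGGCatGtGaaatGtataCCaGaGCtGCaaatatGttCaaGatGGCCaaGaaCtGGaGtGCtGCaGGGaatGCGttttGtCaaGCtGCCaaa

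The dependence on GC content differed between libraries. Over all tested genes, the slope of log2 value per 10 percentage points of GC, relative to the mean library, was -0.042, -0.016 and -0.117 in GVHD libraries 1, 2 and 3 and 0.094, 0.068 and 0.013 in TCD libraries 1, 2 and 3. Across the 36 presynaptic genes the slopes had the same signs, at -0.084, -0.073 and -0.162 in GVHD and 0.141, 0.103 and 0.076 in TCD. A linear GC correction of each library, fitted on all tested genes, brought Spearman's rho across all tested genes to 0.01 and across the 36 genes to -0.33.

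The median of the 36 genes was as large after this correction, at -0.16, while the spread between GC-rich and GC-poor genes narrowed, to medians of -0.19 and -0.13. Nrxn2 remained called, at -0.42 with an adjusted p of 0.0474, and Slc30a3 was not, at -0.45 with an adjusted p of 0.0977. With a smooth GC curve in place of the line, 0 of the 36 genes were called, and Nrxn2 stood at -0.32 with an adjusted p of 0.0732. The share of tested genes called lower was 0.0772% with the line and 0.014% with the curve. With GC content taken as the mean over a gene's transcripts or from the coding sequence alone, the line again left Nrxn2 called, beside 0.0842% and 0.0447% of tested genes. Single genes went different ways under the line: Slc32a1, among the richest in GC, went to -0.02, Snap25, the poorest, changed sign to -0.08, and Syp, with 45.4% GC, went from -0.23 to -0.28. The fold change of the 36 genes also followed transcript length, with a Spearman rho of 0.44, and 0.48 after the GC correction, the shorter transcripts having the lower fold changes. Across all tested genes that rho was 0.10.

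**Figure D4:**
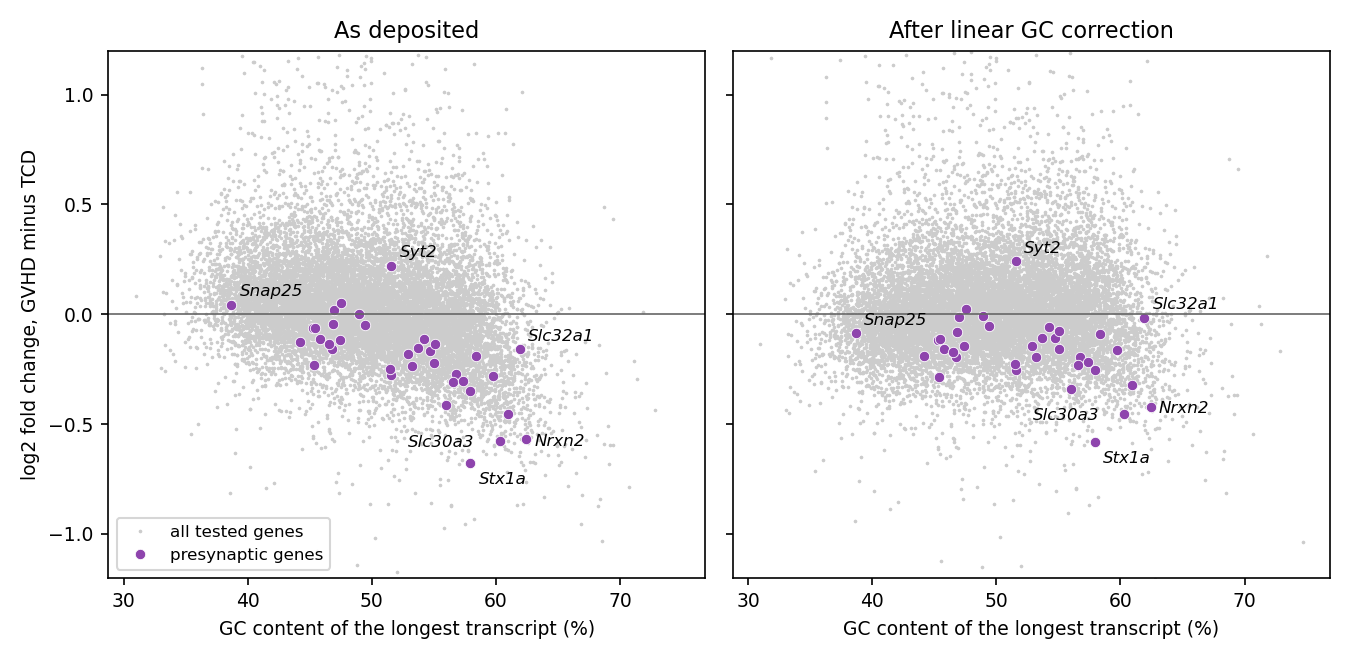
Log2 fold change (GVHD minus TCD) against the GC content of the longest transcript (%) for all tested genes (grey) and the 36 presynaptic genes (purple), as deposited and after the linear GC correction. The downward slope of the purple points (Spearman rho -0.71) is shallower on the right (-0.33), where 34 of the 36 lie below 0, and 95 grey genes on the left and 88 on the right lie outside the axis.

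Promoters of the genes were searched for letters of known sites, since most of the genes had fold changes of the same sign. RefSeq promoter windows on GRCm38.p6, from 250 bases before to 50 after the start, were matched for 29 of the 36 genes, and Cacna1a, Nrxn2, Rims2, Snap25, Syn3, Syt7 and Vamp2 had no entry. The letters TTCAGCACC, the left arm of the RE1 site bound by the neuronal gene repressor REST, occurred on either strand in 3 of the 29 (10.3%), those of Ppfia3, Syn1 and Unc13a, and in 0.433% of 27025 genes. The cyclic AMP response element TGACGTCA occurred in 1 of the 29 (3.45%), that of Syn1, against 2.03%. The GC box GGGCGG occurred in 22 of the 29 (75.9%), against 38.2%. The 27025 genes were not limited to the genes tested here or matched for GC content, and the differences in share were not tested. No match of these motifs overlaps another in the stretches shown, and a match is a string of letters, not a measured binding site. The stretches before the start that hold the RE1 letters are given 5′ to 3′ on the minus strand, with matches to the RE1 and cyclic AMP letters in capitals and up to 20 bases on each side, for Syn1 (chrX:20921050-20921168) and Ppfia3 (chr7:45367037-45367085). The match of Unc13a lay after the start. In Syn1 the RE1 letters lay 232 to 224 bases before the start and the cyclic AMP letters 159 to 152, and in Ppfia3 the RE1 letters lay 46 to 38 bases before it.
Syn1: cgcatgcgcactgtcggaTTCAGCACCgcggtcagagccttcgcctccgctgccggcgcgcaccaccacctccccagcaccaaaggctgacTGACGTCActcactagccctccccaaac
Ppfia3: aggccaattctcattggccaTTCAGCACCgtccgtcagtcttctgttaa

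Other genes of the presynaptic terminal gave smaller values. Of 69 further presynaptic genes, 68 were tested and limma called 0 in either direction. At an unadjusted p under 0.05, 10 were lower and 1 higher, against 9.15% and 7.85% of all tested genes. Fold changes were negative for 47, and the median was -0.08, against -0.16 for the 36 genes and 0.00 for all tested genes. The lowest p belonged to Scamp5, a vesicle membrane carrier protein, at 309.7 ± 17.6 in GVHD and 410.4 ± 33.3 in TCD (SD, n = 3 each), a log2 fold change of -0.40 ± 0.08 with an adjusted p of 0.0698. Synaptoporin (Synpr), a synaptophysin relative of mossy fibre terminals, followed at -0.31 ± 0.09 (log2). On the other side stood Slc17a6 (VGLUT2), the glutamate transporter of inputs from the thalamus and hypothalamus, with 42.4, 54.0 and 50.8 in GVHD and 14.7, 39.4 and 39.9 in TCD. All of its GVHD values lay above its TCD values, and TCD library 1 was far below the rest.

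Pan-neuronal and postsynaptic scaffold genes lay in the same direction as the presynaptic genes. Of the other neuronal lists, the CA1 and CA3 genes had median log2 fold changes of -0.17 and -0.31. The inhibitory neuron and dentate gyrus genes had medians of 0.09 and 0.31. Of 20 pan-neuronal genes, 18 were negative, with a median log2 fold change of -0.15. Limma called 0, with 6 lower and 0 higher at an unadjusted p under 0.05, against 9.15% and 7.85% of all tested genes. Rbfox3 (NeuN), a nuclear marker of neurons, had 164.1 ± 14.3 in GVHD and 223.8 ± 30.5 in TCD (SD, n = 3 each), at -0.44 ± 0.11 (log2, adjusted p = 0.101). Of 21 postsynaptic scaffold genes, 20 were negative, with a median of -0.28, and limma called 0, with 12 lower and 0 higher at an unadjusted p under 0.05. When each library was centred on the mean of the pan-neuronal genes, the median of all tested genes shifted to 0.15. That of the 36 presynaptic genes shifted to -0.02. On that scale 0.118% of tested genes were called lower, and Nrxn2 stood at -0.42 (adjusted p = 0.04) and Slc30a3 at -0.43 (adjusted p = 0.0711).

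Genes of neighbouring structures moved with the groups too. Choroid plexus genes, of the tissue that makes cerebrospinal fluid and lies against the hippocampus, summed to 1641.9 to 5370.3 in GVHD and to 178.6 to 266.9 in TCD, and 11 of 12 were called higher. Transthyretin (Ttr), its defining gene, had 2867.0, 911.8 and 3277.8 in GVHD and 59.3, 15.9 and 7.34 in TCD, while Slc4a5, Otx2 and Tmem72 were at 0 in TCD library 3 and Tmem72 also in TCD library 2. Among the GVHD libraries, library 2 had the least choroid plexus signal and the smallest median deviation of the presynaptic genes, at -0.04. Among the TCD libraries, library 1 had the most choroid plexus signal, at 266.9, and the highest presynaptic deviation, at 0.18. Oligodendrocyte genes summed to 5107.7 to 7061.1 in GVHD and 3677.5 to 5518.2 in TCD, with all 10 positive and 0 called by limma. At an unadjusted p under 0.05, 7 were higher, against 7.85% of all tested genes. The CA1 and CA3 genes stood highest in TCD library 1, with median log2 deviations of 0.59 and 0.73. In that library 21 of the 36 presynaptic genes were highest. In TCD library 3, where 12 of the 36 were highest, the CA1 and CA3 deviations were -0.31 and -0.36. The part of these tissue genes in the presynaptic values was not tested.

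**Figure D5:**
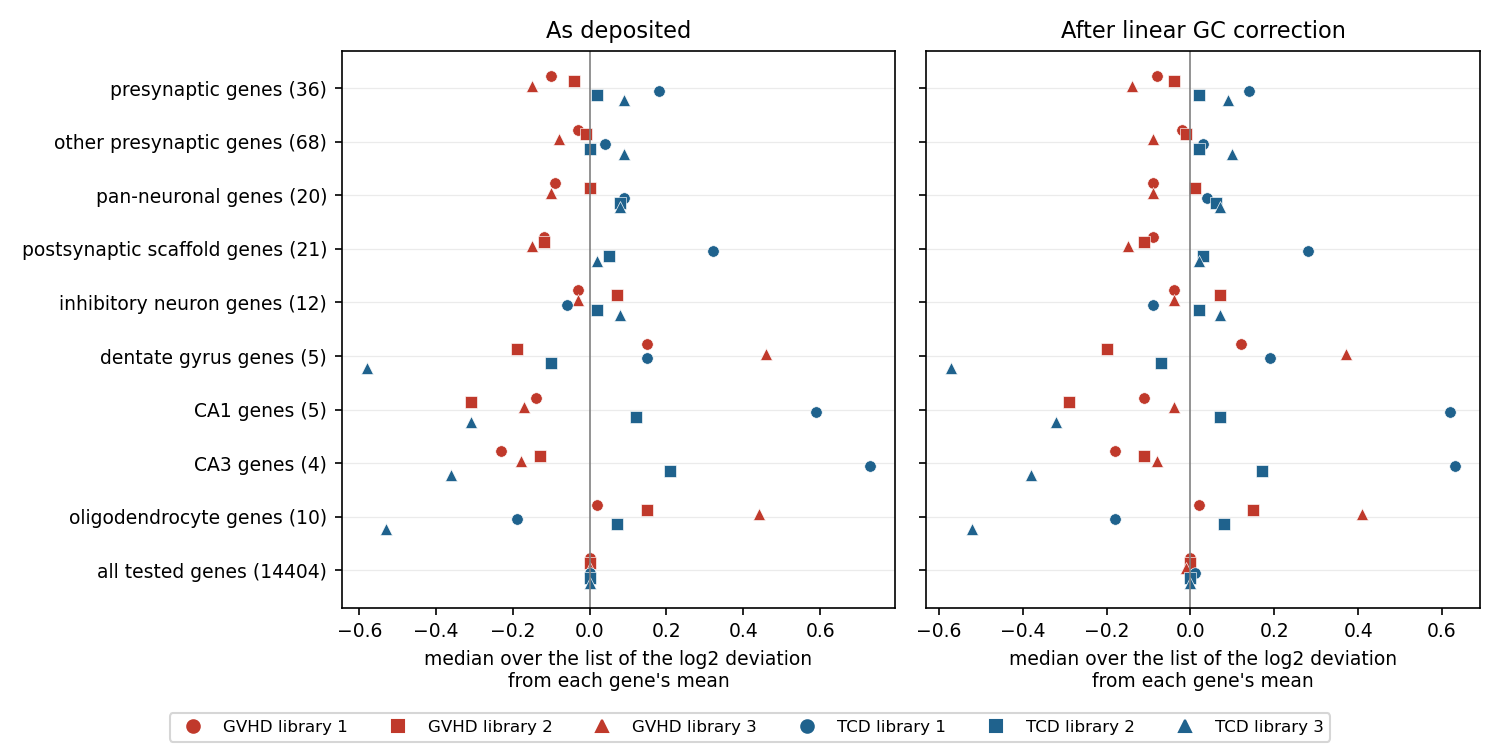
Median log2 deviation from each gene's mean, per library, for the 36 presynaptic genes and the other gene lists (number of tested genes in brackets), as deposited and after the linear GC correction. The 3 GVHD libraries (red) lie below the 3 TCD libraries (blue) in both panels for the 36 presynaptic genes. The same holds for the other presynaptic genes, the pan-neuronal genes and the postsynaptic scaffold genes. The CA1 and CA3 genes are highest in TCD library 1.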

How the data were processed

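RNA of 6 hippocampi (3 GVHD, 3 TCD, grouped by sample title) was sequenced as stranded RNA, per the labels. The values are normalised counts, a scaled signal, which the authors deposited. Their library totals ran from 982114.4 to 1078635.6, with every GVHD total below every TCD total. The submitters' processing notes name cutadapt 1.9, STAR 2.5.2a, RSEM 1.2.30 and the build GRCm38. The scaling method is not given in the sources used here. Counting that divides reads between like transcripts could move values between members of a gene family.

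Values were transformed as log2(value + 1), which understates changes of low genes. The 14404 genes at 1 or more in 3 or more libraries entered 1 limma model (version 3.58.1, R 4.3.3) of the 2 groups, with a mean-variance trend, two-sided p and Benjamini-Hochberg adjustment over all of them, and the threshold was an adjusted p of 0.05. Per the series design each library is 1 mouse. The limma p-values weigh the group difference against the spread between mice within the groups, estimated in part from all tested genes. GC content came from the longest GENCODE transcript, and 192 of 15634 genes had no match. Whole reads could not be recovered from the values, so no count test was run, and read numbers are estimates from the smallest step.

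The 36 genes and the 16 gene lists set beside them were chosen with earlier results of these data known, so no p is given over a list. All 36 genes are accounted for. Values in every library are given for called genes, for the largest and smallest fold changes and for genes fixed by role, and Syn2, Pclo, Cacna1b and Amph were added after their values were seen. Of the other lists, genes with the smallest p are named. Ttr and the choroid plexus genes at 0 are named after their values were seen. Alternatives covered the pseudocount, filter, scaling, variance trend, GC correction, replicate block and leaving out each library. The sorted-cell libraries were not used here.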

Additional observations from a re-analysis of the deposited data

How the results depend on the processing

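With 3 mice a group, limma left most of the 36 genes short of the threshold, and both calls near it. Nrxn2 and Slc30a3 remained called with a pseudocount of 0.1 or 5, with no filter, with a filter of 5 and with size factors. Of the 36 genes, 0 were called lower with quantile normalisation, a smooth GC correction or no variance trend, settings in which 9, 2 and 0 of all tested genes were called lower. The count was 1 (Nrxn2) when libraries were centred on pan-neuronal genes and with a linear GC correction from the longest transcript, from the mean over transcripts or from the coding sequence. The last 2 GC measures were chosen after seeing the data. Without each library in turn the count ran from 0 to 1. No alternative called any of the 36 genes higher.

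The sample titles number the libraries but do not say whether equal numbers mark pairs. Same-numbered GVHD and TCD libraries had correlations of -0.16, -0.04 and -0.18 in their deviations from the group means. Differently numbered ones had correlations from -0.08 to 0.19. Deviations within a group sum to 0, which ties these correlations together, so they cannot settle whether the libraries were paired. With the replicate number as a block, 0 of the 36 genes were called (adjusted p = 0.0793 for Nrxn2 and 0.0855 for Slc30a3), and also 0 with the block and the linear GC correction. Genes called lower in the whole table went from 23 to 1 with the block and to 0 with the block and the GC correction, and genes called higher from 46 to 15 with either.

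The median log2 fold change of the 36 genes was -0.09 with quantile normalisation and -0.02 when centred on pan-neuronal genes, and ran from -0.20 to -0.12 without each library in turn. Of the alternatives run for 24 of the 36 genes, which leave out Syn2, Pclo, Cacna1b and Amph among those given by library, 429 kept the sign and the side of the threshold, 24 lost a call and 27 changed sign. With quantile normalisation Sv2a was at 0.01, Rims2 at 0.01 and Synj1 at 0.07. Centred on pan-neuronal genes, Sv2a and Syt1 were at 0.04, Unc13a at 0.01, Rims1 at 0.03, Rims2 at 0.15 and Synj1 at 0.10. Snap25 was at -0.08 with the linear, -0.05 with the smooth and -0.04 with the mean-over-transcripts GC correction, and at -0.08 with the replicate block and linear GC correction. Vamp1 was at -0.01 with the linear and -0.02 with the smooth GC correction, and at -0.01 with the replicate block and linear GC correction. Slc32a1 was at 0.07 with the smooth GC correction, and Rims2 at 8e-05 with a pseudocount of 0.1. Without each library in turn, Snap25 ran from -0.01 to 0.12, Vamp1 from -0.05 to 0.10, Rims2 from -0.09 to 0.08, Nrxn3 from -0.10 to 0.22 and Synj1 from -0.08 to 0.01. The cause of these changes was not tested.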

Other observations

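Of 12 genes of inhibitory neurons, 5 had negative fold changes. Their median log2 fold change was 0.09, and -0.01 after the linear GC correction. Limma called 0, with 0 lower and 1 higher at an unadjusted p under 0.05, against 9.15% and 7.85% of all tested genes. Gad1, which makes GABA, had 421.0 ± 35.8 in GVHD and 359.1 ± 16.0 in TCD (SD, n = 3 each), a log2 fold change of 0.23 ± 0.08 with an adjusted p of 0.212, while the GABA carrier Slc32a1 was at -0.16 ± 0.09. The difference between inhibitory and other neuronal genes was not tested. Dlgap3, a scaffold protein of excitatory synapses, had the smallest p of the postsynaptic genes, at 243.3 ± 26.0 and 355.0 ± 33.4 (SD, n = 3 each), a log2 fold change of -0.54 ± 0.10 with an adjusted p of 0.0603.

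Genes of the hippocampal fields had a wide range over the TCD libraries, and limma called 0 of the dentate gyrus, CA1, CA3 and thalamus genes, with 0 CA1 and CA3 genes, 1 dentate gyrus gene (higher) and 1 thalamus gene (lower) at an unadjusted p under 0.05. Fibcd1 (CA1) had 243.7, 162.4 and 115.7 in TCD libraries 1, 2 and 3 and 124.8 ± 8.38 in GVHD (SD, n = 3), and Bok (CA3) had 62.5, 44.1 and 27.5 in TCD and 29.3 to 30.8 in GVHD. The dentate gyrus genes summed to 170.9 to 256.9 in GVHD and 133.3 to 294.5 in TCD, and the thalamus genes to 134.6 to 163.3 and 126.5 to 143.1. The median log2 fold change of the dentate gyrus genes was 0.31, and 0.19 after the linear GC correction. That of the thalamus genes was 0.07, and 0.01 after it.

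Of the other cell types, limma called 0 of 10 astrocyte, 6 oligodendrocyte precursor, 10 microglia, 7 endothelial and 4 red cell genes. Their median log2 fold changes were -0.05, -0.23, 0.19, -0.07 and -0.12, and -0.06, -0.11, 0.22, -0.10 and -0.07 after the linear GC correction. At an unadjusted limma p under 0.05 they held 2, 3, 1, 1 and 1 lower genes, against 9.15% of all tested genes. They held 0, 0, 3, 0 and 0 higher genes, against 7.85%. Of 5 T cell genes only Cd8a was in the table, at 2.03 ± 0.631 in GVHD and 0.395 ± 0.321 in TCD (SD, n = 3 each), a log2 fold change of 1.12 ± 0.25 with an adjusted p of 0.0867, and the others were not analysed here.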
